A study of Drosophila melanogaster with 19 samples.

Results

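The comparison described here set c564>nub-RB bodies directly against c564>Pdm2-RB bodies, with no control array in the test. Its members were the 4 nub-RB rest arrays and the 3 Pdm2-RB rest arrays, 7 of the 19 arrays in the series, chosen by their sample titles. The rest is the body of the fly without gut and head. Each array was a single-colour Agilent expression array hybridised with RNA from female flies aged 10 days.

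The nub-RB flies carried a UAS-nub-RB transgene over c564-Gal4 and the Pdm2-RB flies a UAS-Pdm2-RB transgene over c564-Gal4, both labelled as w flies. The w1118 flies carried the c564-Gal4 driver without a UAS target, so the driver was shared by all 3 genotypes. Their genotype label spelled the driver c546-Gal4, whereas the design text spelled it c564-Gal4. The driver is active in fat body and in other tissues, so neither protein was confined to 1 cell type. Each protein was represented by 1 transgenic genotype, and therefore the protein and the fly line that carries it cannot be told apart. The replicates were independent pools of dissected flies according to the study's methods.

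Nubbin (Nub, also called Pdm1) and Pdm2 are class II POU transcription factors of Drosophila, encoded by neighbouring genes. POU proteins bind octamer-like DNA elements through a POU-specific domain and a POU homeodomain. The RB transcript of nub encodes the long isoform, Nub-PB. The fat body is the fly counterpart of liver and adipose tissue and secretes antimicrobial peptides into the haemolymph after signalling through the Toll and IMD pathways. The direct comparison asks which transcripts are particular to one of the overexpressing lines and which are at a like level in both.

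Of 32162 probes on the array, 16363 had a mean signal above 130 in at least 1 of the 2 lines and were tested. At a false discovery rate of 1% (limma, Benjamini-Hochberg adjustment), 162 probes differed, which is 0.99% of those tested. Of these, 82 were higher in nub-RB (0.501% of the probes tested) and 80 were lower in nub-RB (0.489%). The median difference over all tested probes was -0.06 on the log2 scale, and 42.4% of them lay above 0. None of the called probes had a saturated spot on a rest array.

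**Figure D1:**
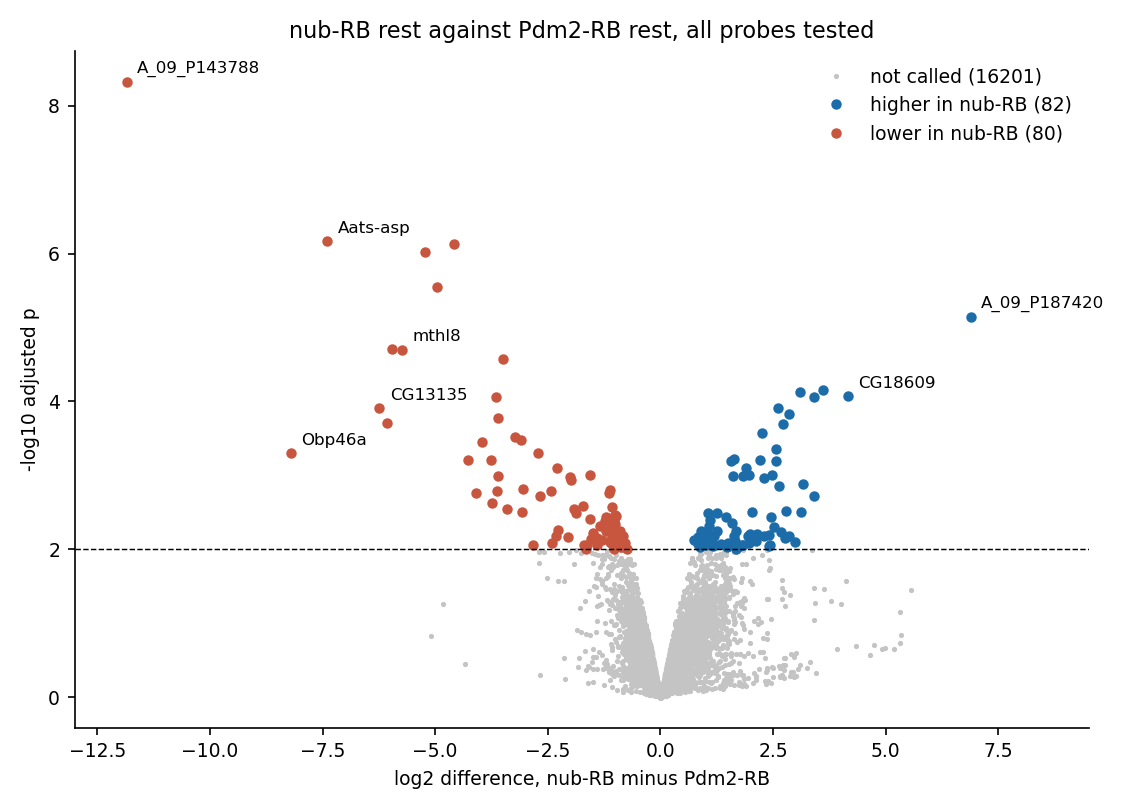
Log2 difference (nub-RB minus Pdm2-RB, x axis) against -log10 of the adjusted p (y axis) for each of the 16363 probes tested on the rest arrays. Blue points are the 82 probes higher in nub-RB, red points the 80 lower, grey points those not called, and the dashed line is the 1% threshold; the largest differences lie on the side of Pdm2-RB, where probe A_09_P143788 reached -11.84.

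The called probes higher in nub-RB differed by 0.75 to 6.88 on the log2 scale, with a median of 1.81, and 8 of them differed by at least 8-fold. Those lower in nub-RB differed by 0.74 to 11.84, with a median of 1.68, and 25 of them differed by at least 8-fold. The 4 nub-RB arrays and the 3 Pdm2-RB arrays did not overlap for any of the 162 probes. Over all tested probes the arrays did not overlap for 8.93% in the direction of nub-RB and for 13.5% in the direction of Pdm2-RB. At an unadjusted p below 0.05, 10% of the tested probes were higher and 12.6% were lower in nub-RB.

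Gene symbols were at hand for only some of the probes. Of the 16363 tested probes 777 (4.75%) carried a symbol here, and 51 of the 162 called probes did, 33 higher (32 genes) and 18 lower (15 genes). Most of these symbols came from supplementary lists that the study drew up from nub-RB against control on these same nub-RB arrays. The named probes as a whole were therefore shifted, with a median difference of 0.83 against -0.06 for all tested probes. Among the named probes, 45.9% were higher in nub-RB at an unadjusted p below 0.05. Counts for named gene groups are read beside these values.

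The arrays themselves differed in ways that bear on the comparison. The median processed signal before normalization was 97.7, 337, 142 and 109 on nub-RB arrays 1, 2, 3 and 4, and 414, 167 and 237 on Pdm2-RB arrays 1, 2 and 4. Arrays correlated at r = 0.961 to 0.98 within nub-RB, at 0.96 to 0.978 within Pdm2-RB and at 0.939 to 0.979 between the lines, across 16363 probes that are not independent of one another. Arrays 1 and 2 of Pdm2-RB and array 2 of nub-RB were scanned on one day and the other 4 arrays on another. With scan day as a block in the fit 55 probes were called, 26 higher and 29 lower in nub-RB, of which 52 were among the 162. Of the probes named by the rule given in the processing section, 11 no longer passed in that fit. These were the probes for His2B:CG33868, His2B:CG33872, spheroide, CG4842, the bright probe of CG33926, Sr-CI, Cyp6a19, CG8087, CG14852, LysP and Top1. Arpc3B, Damm, lectin-28C, Tsp42El, CG8768, CG32368 and the dimmer CG33926 probe, also described below as called, were not followed one by one in that fit.

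The label of the tissue was checked against markers of other tissues. The summed signal of a list of 32 probes for digestive enzymes, trypsins and Jonah proteases among them, was 541800, 6361, 16810 and 548500 on nub-RB arrays 1, 2, 3 and 4. It was 115200, 15000 and 28260 on Pdm2-RB arrays 1, 2 and 4 and 578700 to 1529000 on the w1118 rest arrays. Thus nub-RB arrays 1 and 4 and Pdm2-RB array 1 stood well above the other 4, although all stayed below the gut arrays of the series, where the sum was 6244000 to 7086000. The list also held LysP, with log2 signals of 13.30, 12.88 and 13.45 on w1118 rest arrays and 2.35, 2.62 and 2.58 on w1118 gut arrays. LysP had 13.29 and 14.50 on Pdm2-RB rest arrays 2 and 4, so the sums there were in part LysP signal. The median log2 of the 32 probes was 10.39 and 10.77 on nub-RB arrays 1 and 4 and 9.26 on Pdm2-RB array 1. It was 4.32 to 5.26 on the other arrays of the lines. The 200 probes with the highest gut minus rest difference in w1118 gave another order. Their summed signal was 34610 to 47010 on nub-RB rest arrays and 66490 to 80480 on Pdm2-RB rest arrays. Their median log2 was 4.04 and 4.43 on nub-RB arrays 1 and 4. It was 2.72 to 3.06 on the other arrays of the lines, with 2.94 on Pdm2-RB array 1. Of 15 probes for male accessory gland, seminal fluid and testis genes, 0 passed the signal threshold. Without the 3 arrays high in digestive enzymes, 8 probes were called, 1 higher and 7 lower, all of them among the 162. Yolk protein and eggshell genes carried no symbol here and were not checked.

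The transgenes themselves were followed only in part. All 5 probes named nub lay below the signal threshold in the rest and were not tested. For 1 of them, A_09_P161260, the log2 signals were 5.19, 5.33, 5.39 and 4.97 in nub-RB, 2.87, 3.55 and 1.97 in Pdm2-RB, and 3.80, 1.99 and 3.38 in w1118. That probe was higher on every nub-RB array than on any Pdm2-RB or w1118 array. The same held for A_09_P048246, at 4.33 to 5.22 in nub-RB and at most 4.01 in the other rest groups. It also held for A_09_P196920, at 5.03 to 5.33 and at most 4.36. Another nub probe, A_09_P004151, had 5.82, 6.41, 6.32 and 6.64 in nub-RB and 6.09, 5.91 and 6.60 in Pdm2-RB, so that the lines overlapped. They also overlapped at A_09_P210005, which was well above background on no rest array. Which of the nub probes lie within the transgene was not known. No probe carried the symbol pdm2 here.

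The genes higher in nub-RB are described first. The largest difference belonged to an unnamed probe, A_09_P187420, annotated only with the transcript cluster TC244416. Its log2 signals were 10.76, 10.19, 10.34 and 10.06 in nub-RB, against 3.36, 3.79 and 3.21 in Pdm2-RB. It was 118-fold higher in nub-RB (log2 difference 6.88 ± 0.21 SE, limma adjusted p = 7.08e-06), and the w1118 rest arrays, at 3.80, 4.15 and 2.83, lay at the Pdm2-RB level. A second unnamed probe, A_09_P170395, had 8.13, 7.71, 7.54 and 7.54 in nub-RB, against 4.24, 4.38 and 4.35 in Pdm2-RB (difference 3.41 ± 0.16 SE, adjusted p = 8.80e-05). Here the w1118 arrays, at 8.81, 8.55 and 8.56, lay above both lines, with Pdm2-RB the further from control.

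CG18609 had the highest difference among called probes with a symbol. It had log2 signals of 8.48, 8.60, 8.88 and 8.95 in nub-RB, against 4.63, 4.89 and 4.21 in Pdm2-RB. The difference was 4.15 ± 0.19 (SE, limma adjusted p = 8.40e-05), a 17.8-fold higher signal in nub-RB, with w1118 at the Pdm2-RB level. A second CG18609 probe that was tested differed by only 0.16. CG10352 had 8.18, 8.31, 7.97 and 8.16 in nub-RB, against 4.33, 4.87 and 4.41 in Pdm2-RB (log2 difference 3.62 ± 0.16 SE, adjusted p = 6.95e-05). Its w1118 signals, 5.44, 5.76 and 5.44, lay between the lines.

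CREG encodes a secreted glycoprotein named in mammals as a cellular repressor of E1A-stimulated genes. CREG was bright in both lines, with log2 signals of 14.26, 14.48, 14.41 and 14.67 in nub-RB and 11.38, 11.57 and 11.84 in Pdm2-RB. It was 7.25-fold higher in nub-RB (log2 difference 2.86 ± 0.15 SE, limma adjusted p = 0.000147). The w1118 arrays, at 11.18, 11.39 and 11.25, were close to Pdm2-RB. CG8204 behaved alike, with 12.38, 12.19, 12.36 and 12.62 in nub-RB, against 9.68, 9.95 and 9.72 in Pdm2-RB and 9.84, 9.98 and 9.18 in w1118. CG4842 (log2 difference 2.79 ± 0.33 SE, adjusted p = 0.0069) also had w1118 at the Pdm2-RB level.

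CG32198 showed a graded pattern. The rest arrays gave log2 signals of 9.48, 10.20, 9.75 and 10.21 in nub-RB, 6.64, 6.36 and 7.21 in Pdm2-RB, and 3.63, 3.74 and 3.85 in w1118. It was 9-fold higher in nub-RB than in Pdm2-RB (log2 difference 3.17 ± 0.26 SE, limma adjusted p = 0.0013). Both lines lay above the control for this gene, and its second probe differed by 2.62 in the same direction.

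Both probes for histone H2B genes, core components of the nucleosome, were higher in nub-RB, by 3.13 for His2B:CG33868 and by 2.84 for His2B:CG33872 (adjusted p = 0.00312 and 0.00668). The first had log2 signals of 9.23, 8.07, 9.04 and 8.52 in nub-RB, against 5.58, 5.94 and 5.22 in Pdm2-RB. The histone genes are a repeated cluster of near-identical copies, so the probes may read the same transcripts.

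The gene spheroide encodes a serine protease homologue that acts upstream of the Toll receptor. The probe had log2 signals of 8.41, 7.89, 7.75 and 7.92 in nub-RB, against 4.15, 5.8 and 5.07 in Pdm2-RB (difference 2.99 ± 0.37 SE, limma adjusted p = 0.00802). The w1118 arrays were spread over both levels, at 7.09, 3.02 and 7.17. In gut arrays of the series the probe was far brighter, 13.49 to 14.16 in nub-RB and 14.21, 14.12 and 13.87 in Pdm2-RB. The part of gut tissue in the rest signal of this probe was not tested.

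Smaller called differences included Arpc3B, a subunit of the actin-nucleating Arp2/3 complex (2.21), Damm, a caspase (2.30), Cyp6a19, a cytochrome P450 (1.96), Sr-CI, a scavenger receptor of phagocytic hemocytes (1.5), the C-type lectin gene lectin-28C (1.47) and the tetraspanin gene Tsp42El (0.75). Tsp42El had log2 signals of 9.36, 9.37, 9.34 and 9.45 in nub-RB, against 8.66, 8.65 and 8.59 in Pdm2-RB, a small difference with little spread within either line. Arpc3B, Damm, lectin-28C and Tsp42El were singled out after their values were seen, for their known roles. Damm had 14.73 to 15.73 on the gut arrays of the lines, against 6.51 to 9.52 on their rest arrays. Arpc3B had 12.74 to 14.22 in gut, against 6.94 to 9.45 in rest. The part of gut tissue in the rest signal of Damm and Arpc3B was not tested.

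**Figure D2:**
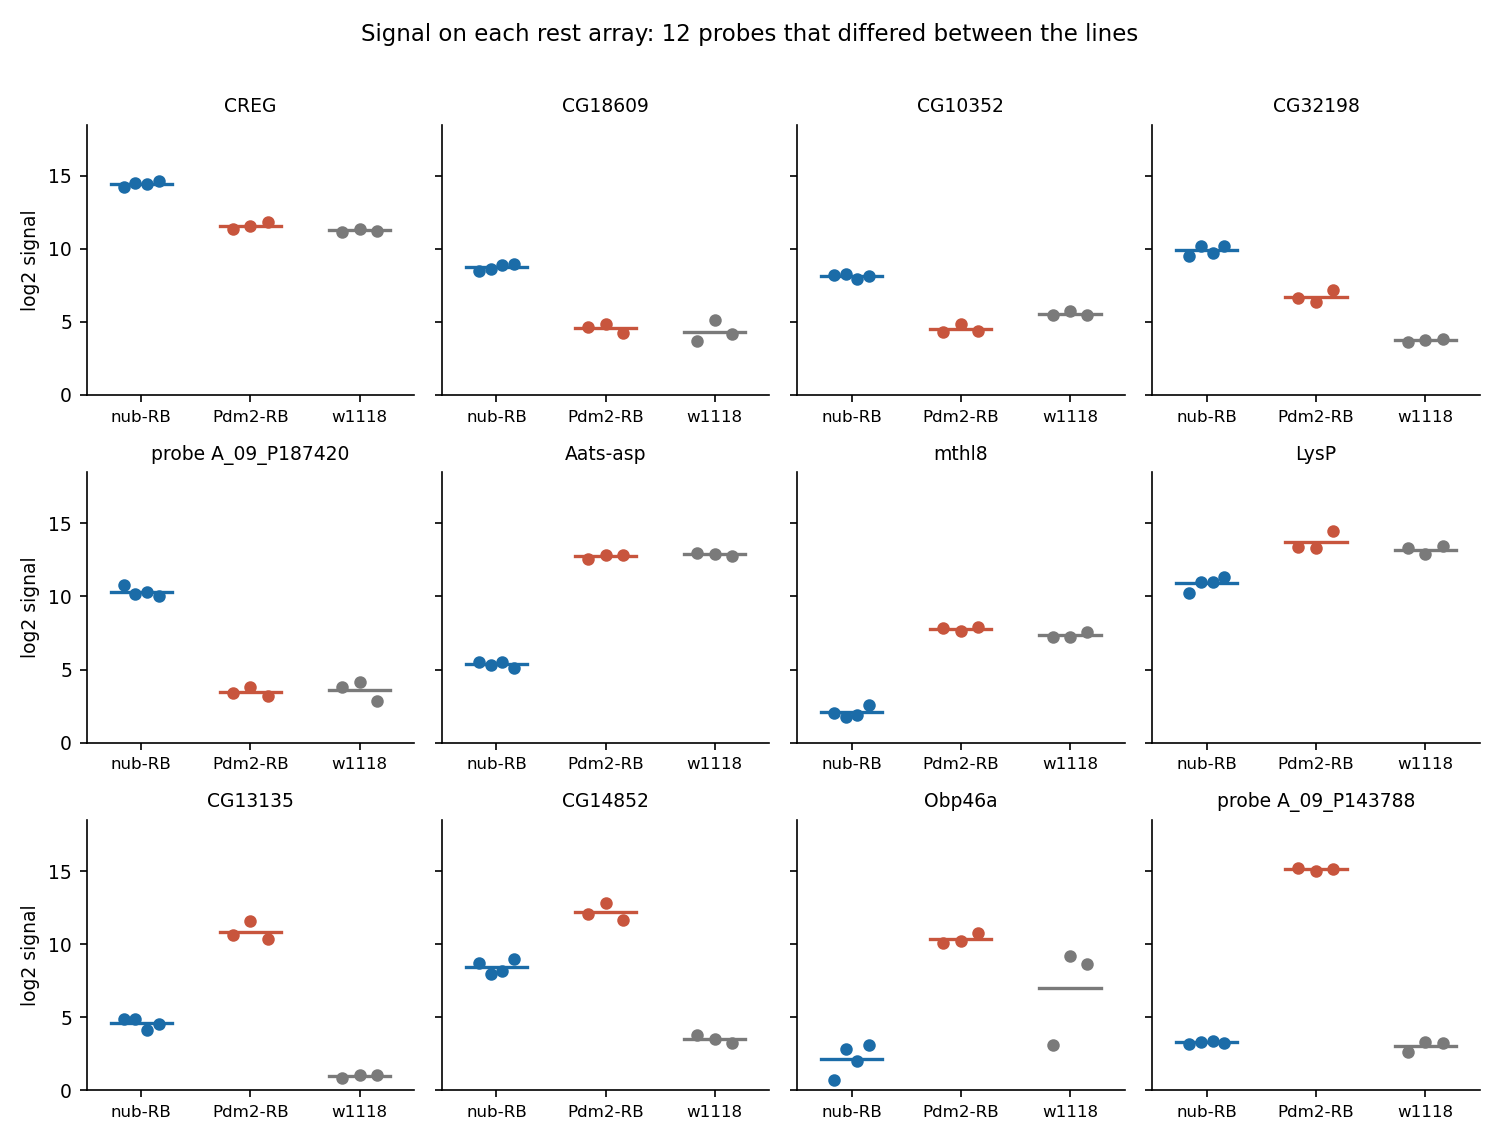
Log2 signal (y axis) on every nub-RB, Pdm2-RB and w1118 rest array for 12 called probes, with each point 1 array and each line the mean of its group. The top row and A_09_P187420 are higher in nub-RB, the other 7 are lower in nub-RB, and w1118 lies with Pdm2-RB for CREG, Aats-asp and mthl8 but with nub-RB for A_09_P143788.

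The largest difference of the comparison was on the other side. Probe A_09_P143788, annotated with the cluster TC238387, had log2 signals of 3.18, 3.28, 3.35 and 3.26 in nub-RB, against 15.21, 14.97 and 15.14 in Pdm2-RB. The difference was -11.84 ± 0.10 (SE, limma adjusted p = 4.68e-09). It stood well above background on 2 of the 4 nub-RB arrays and on all 3 Pdm2-RB arrays, and w1118, at 2.64, 3.28 and 3.20, was as low as nub-RB. The cluster carries no gene symbol here. A second unnamed probe, A_09_P112760 (IP01825), was lower by 5.96 in nub-RB, with 4.76, 4.24, 4.31 and 4.73 in nub-RB against 10.14, 10.42 and 10.84 in Pdm2-RB.

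For several genes Pdm2-RB and w1118 were alike and nub-RB alone was low. Aats-asp, which encodes aspartyl-tRNA synthetase, had log2 signals of 5.53, 5.28, 5.5 and 5.10 in nub-RB, against 12.59, 12.85 and 12.81 in Pdm2-RB. It was 169-fold lower in nub-RB (log2 difference -7.40 ± 0.14 SE, limma adjusted p = 6.79e-07), while w1118 had 13, 12.89 and 12.75. Aats-asp is represented by 1 named probe here, so the value is that of the stretch the probe reads.

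The gene mthl8 encodes a G protein-coupled receptor of the Methuselah-like family. Its log2 signals were 2.02, 1.73, 1.89 and 2.60 in nub-RB, against 7.84, 7.67 and 7.89 in Pdm2-RB and 7.20, 7.20 and 7.6 in w1118. The probe was not well above background on any nub-RB array. Set against the lowest signal that counted as above background on those arrays, mthl8 was at least 22.9-fold lower in nub-RB (limma adjusted p = 1.98e-05). CG42673 was likewise lowest in nub-RB, with 6.34, 6.18, 6.35 and 6.79 in nub-RB, 8.81, 8.51 and 9.21 in Pdm2-RB and 9.13, 9.17 and 9.63 in w1118.

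CG8768, which was singled out after its values were seen, had 3 called probes. Probe A_09_P007031 had log2 signals of 6.55, 6.48, 6.44 and 6.39 in nub-RB, against 11.02, 11.03 and 11.08 in Pdm2-RB and 10.82, 11.01 and 10.87 in w1118. The other two differed by -4.96 and -1.17, so that the probes of 1 gene gave unequal sizes in the same direction.

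LysP, a lysozyme gene, had log2 signals of 10.24, 11, 10.98 and 11.35 in nub-RB, against 13.36, 13.29 and 14.50 in Pdm2-RB (difference -2.83 ± 0.36 SE, limma adjusted p = 0.00875). The w1118 arrays, at 13.30, 12.88 and 13.45, lay with Pdm2-RB. LysP was the only called probe among the 21 tested probes of the digestive enzyme list, beside 51 of 777 named probes called. The other 20 had differences above 0, beside 652 of 777 named probes. The median of the list was 1.77 on all 7 arrays. It was 0.05 without nub-RB arrays 1 and 4 and Pdm2-RB array 1, which were picked for their high signal in this same list. A probe for Top1, DNA topoisomerase I, was lower by 2.27 in nub-RB (adjusted p = 0.00544).

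For other genes the control was lower than either line. CG13135 had log2 signals of 4.86, 4.88, 4.15 and 4.56 in nub-RB, against 10.62, 11.59 and 10.34 in Pdm2-RB and 0.86, 1.03 and 1.03 in w1118. It was 75.5-fold lower in nub-RB than in Pdm2-RB (log2 difference -6.24 ± 0.32 SE, limma adjusted p = 0.000124). CG14852 had 8.72, 7.97, 8.13 and 9.01 in nub-RB, against 12.09, 12.83 and 11.68 in Pdm2-RB and 3.77, 3.47 and 3.23 in w1118.

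CG8087, whose gene is the immediate neighbour of CG14852 on arm 3R, had the same order, with 4.47, 3.52, 4 and 4.75 in nub-RB, 8.33, 8.82 and 7.69 in Pdm2-RB and 2.08, 1.80 and 2.68 in w1118. Among 46 called genes with a position, CG14852 and CG8087 formed the only pair with at most 1 annotated gene between them. PH4alphaSG1, a subunit of a prolyl 4-hydroxylase, an enzyme that modifies collagen-like proteins, had 4.92, 4.95, 4.94 and 4.18 in nub-RB, against 8.41, 7.76 and 8.95 in Pdm2-RB and 2.89, 2.53 and 3.32 in w1118 (difference -3.62 ± 0.31 SE, adjusted p = 0.00164).

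Obp46a, a member of the odorant-binding protein family, was far lower in nub-RB. Its log2 signals were 0.69, 2.80, 1.99 and 3.06 in nub-RB, against 10.04, 10.18 and 10.79 in Pdm2-RB (difference -8.20 ± 0.55 SE, limma adjusted p = 0.000498), but it was well above background on only 1 of 4 nub-RB arrays, so the size of the difference rests on signals near background. The control was split, with 3.1 on w1118 array 1 and 9.17 and 8.64 on arrays 3 and 4. A_09_P112760 split the control in the same way, with 4.52, 9.35 and 8.98. The gut arrays repeated the split, since Obp46a had 0.74 on w1118 gut array 1 and 10.04 and 9.41 on w1118 gut arrays 3 and 4.

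A split within Pdm2-RB was seen for Dhpr, which encodes dihydropteridine reductase. Dhpr had log2 signals of 3.04, 3.14, 3.64 and 5 in nub-RB, against 10.85, 11.54 and 4.01 in Pdm2-RB, and 9.10, 10.41 and 9.79 in w1118. Array 4 of Pdm2-RB thus lay at the nub-RB level, and the difference of -5.10 did not pass the test (limma adjusted p = 0.151). Pdm2-RB gut array 4 was low as well, at 2.47, against 10.02 and 11.28 on Pdm2-RB gut arrays 1 and 2.

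Probes of 1 gene did not always move alike. CG33926 had a bright probe that was higher in nub-RB by 2.68 (adjusted p = 0.00585) and a dimmer one that was lower by 3.40 (adjusted p = 0.00281). The bright probe had 13.69, 14.25, 14.21 and 15.01 in nub-RB against 11.90, 11.31 and 11.61 in Pdm2-RB, and the dimmer probe 5.74, 6.42, 6.10 and 6.51 in nub-RB against 10.11, 9.80 and 8.86 in Pdm2-RB. Of 16 called genes with several tested probes, the signs of the probes differed in 3, CG33926, CG18327 and RpS23. A difference at 1 probe is therefore a statement on the stretch of transcript that it reads.

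The w1118 rest arrays, kept out of the test, were then set beside the 162 called probes as a description. A control mean was counted as lying at the level of a line when it was within 25% of the difference between the lines. By this count w1118 lay at the Pdm2-RB level for 49 probes, at the nub-RB level for 33, between the lines for 43 and outside both for 37. For the 82 probes higher in nub-RB the same counts were 24, 14, 22 and 22. For the 80 probes lower in nub-RB they were 25, 19, 21 and 15. Called probes in both directions were thus found in each of these classes.

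**Figure D3:**
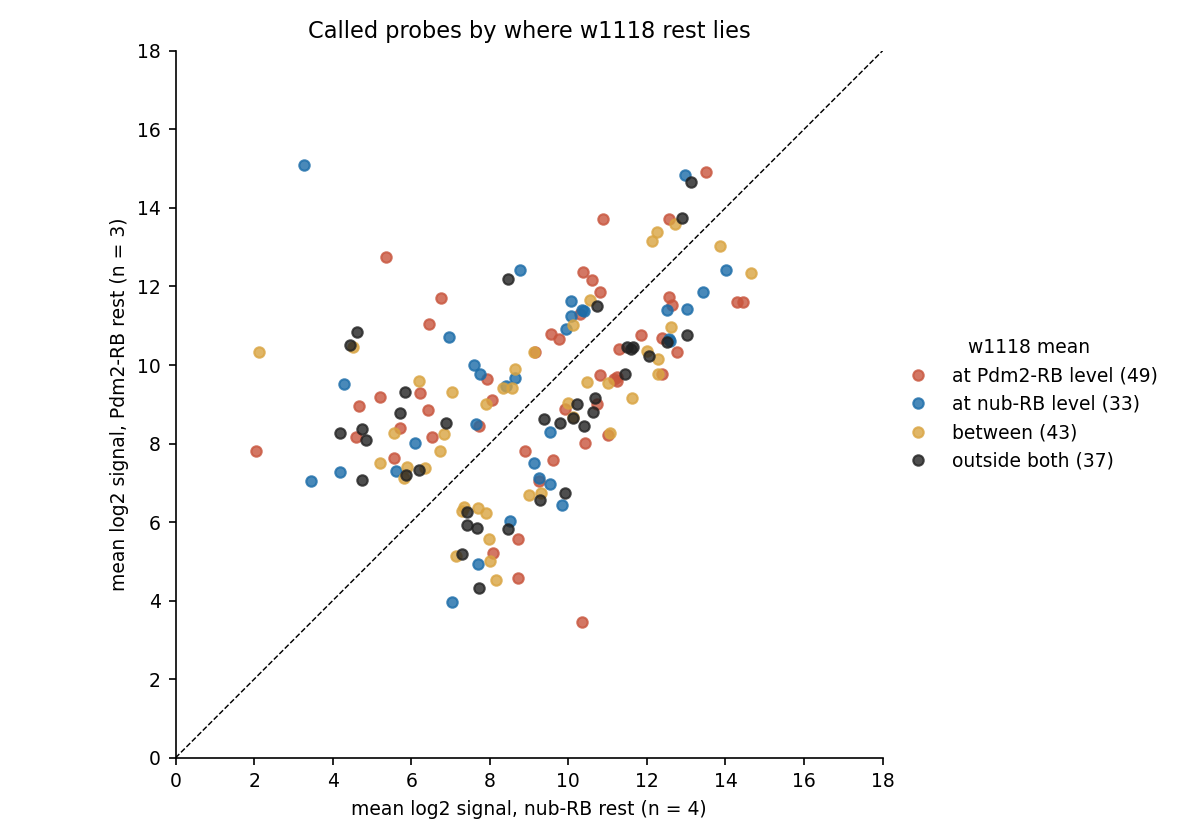
Mean log2 signal in nub-RB rest (x axis, n = 4) against mean log2 signal in Pdm2-RB rest (y axis, n = 3) for the 162 called probes, coloured by where the w1118 rest mean (n = 3) lies, with the dashed line marking equal signal. The 4 classes, of 49, 33, 43 and 37 probes, occur on both sides of the line.

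Antimicrobial peptide genes, the effectors of humoral immunity, did not separate the lines at the threshold. Of 23 tested probes of 15 genes 0 were called, beside 0.99% of all tested probes and 51 of 777 named probes. With 23 probes a count of 0 is near the share of all tested probes. Only 1 (Drs, 4.35%) was higher at an unadjusted p below 0.05, beside 10% of all tested and 45.95% of all named probes. The median difference was 0.92, beside 0.83 over all named probes. The single genes that follow did not pass and were named after their values were seen. Dpt, a diptericin regulated mainly through IMD, had log2 signals of 15.00, 15.96, 12.28 and 13.50 in nub-RB, 16.73, 13.06 and 11.47 in Pdm2-RB, and 5.11, 5.44 and 5.43 in w1118. The lines overlapped over several log2 units, and both lay above every control array.

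AttC, an attacin, gave the same picture, with 16.03, 17.28, 15.16 and 15.52 in nub-RB, 17.39, 14.53 and 13.10 in Pdm2-RB and 8.92, 9.05 and 8.88 in w1118. For Dpt the 95% interval of the difference ran from -2.69 to 3.55, so that a several-fold difference in either direction was not excluded by these 7 arrays. The spread within each line was wide for these genes: nub-RB array 2 and Pdm2-RB array 1 were the highest of their lines for both Dpt and AttC.

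Drs, which encodes the antifungal peptide drosomycin and is a classical Toll readout, was the exception within the list. Its log2 signals were 15.97, 17.73, 15.66 and 15.54 in nub-RB, 12.61, 14.24 and 11.50 in Pdm2-RB, and 13.19, 10.05 and 14.01 in w1118. The arrays of the lines did not overlap, but the difference of 3.44 ± 0.74 (SE) missed the threshold (limma adjusted p = 0.0535). With scan day as a block Drs passed, at 4.26 (limma adjusted p = 0.00883), whereas Sr-CI, spheroide, Cyp6a19 and LysP, called without the block, did not. In that fit the median of the antimicrobial list was 1.82. There 12 of its 23 probes were higher at an unadjusted p below 0.05, beside 1390 of all 16363 tested probes. The share over all named probes was not computed in that fit, and without the block it was 45.95%. Without the 3 arrays high in digestive enzymes that median was 2.10, with 6 of 23 probes higher at an unadjusted p below 0.05 and 0 called. In that setting 837 of all 16363 tested probes were higher at this p, and the share over named probes was not computed.

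Bomanins and other peptides induced in the haemolymph by infection, many of them Toll targets, lay on the side of nub-RB, although none of them was called. All 31 tested probes of 22 genes were above 0, with a median difference of 1.20 and a range of 0.24 to 2.88. At an unadjusted p below 0.05, 27 of the 31 were higher in nub-RB (87.1%), beside 45.9% of all named probes and 10% of all tested probes. For 21 probes (67.7%) the arrays of the lines did not overlap, beside 38.6% of all named probes.

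Of this list IM4 and IM23 were named after their values were seen. At 1 IM4 probe the log2 signals were 17.39, 18.33, 17.45 and 17.68 in nub-RB, 16.14, 16.16 and 16.90 in Pdm2-RB, and 14.34, 14.83 and 14.71 in w1118. The difference was 1.31 (limma adjusted p = 0.0528), and both lines were above control. IM23 differed more, with 12.22, 14.36, 12 and 12.32 in nub-RB and 9.44, 9.78 and 10.33 in Pdm2-RB (difference 2.88, adjusted p = 0.0421). Within nub-RB, array 2 was the highest at this IM4 probe and for IM23, as it was for Drs. Without the 3 arrays high in digestive enzymes, 15 of the 31 probes of the list were higher at an unadjusted p below 0.05. In that setting 837 of all 16363 tested probes were, and the share over named probes was not computed.

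Genes of hemocytes, the blood cells that carry out phagocytosis and melanization, lay on the side of nub-RB throughout. Each of the 21 tested probes, of 13 genes, had an unadjusted p below 0.05 in the direction of nub-RB, beside 45.9% of all named probes. The median difference was 1.01, with a range of 0.62 to 1.86, beside a median of 0.83 over all named probes. Most symbols came from lists drawn from these nub-RB arrays, so the direction of named probes is not independent of them. One probe was called, for Sr-CI, with log2 signals of 11.08, 11.46, 10.76 and 11.32 in nub-RB, 9.46, 9.83 and 9.66 in Pdm2-RB and 8.90, 9.60 and 9.51 in w1118 (difference 1.5 ± 0.19 SE, limma adjusted p = 0.00812). With scan day as a block Sr-CI had an adjusted p of 0.0224 (limma), so that 0 hemocyte probes were called. In that fit 18 of 21 were higher at an unadjusted p below 0.05, beside 1390 of all 16363 tested probes.

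The marker genes Hml, a hemolectin involved in clotting, and eater, a phagocytic receptor, had differences of 0.74 to 0.95 over 3 probes and of 1.01 and 1.13 over 2 probes. They did not pass the 1% threshold and were named after their values were seen. Without the 3 arrays high in digestive enzymes, 13 of the 21 hemocyte probes were higher at an unadjusted p below 0.05, with a median of 0.88 and 0 called. In that setting 837 of all 16363 tested probes were higher at this p, and the share over named probes was not computed. The summed signal of the 24 hemocyte probes was 69370 to 119800 in nub-RB, 32190 to 55620 in Pdm2-RB and 17330 to 28480 in w1118. In these bulk samples more cells of a type and more RNA per cell cannot be told apart, and the part of hemocyte number in other differences was not tested. Muscle genes, for example Act88F, the actin of flight muscle, had 11 of 11 tested probes above 0, beside 652 of 777 named probes. Their median was 1.12, beside 0.83 over all named probes, and 0 were called. At an unadjusted p below 0.05, 6 of the 11 were higher in nub-RB (54.55%), near the 45.9% of all named probes.

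Serine proteases and homologues had been listed by the study from these samples, so their direction is not independent of the nub-RB arrays. All 17 tested probes were above 0, beside 652 of 777 named probes, with a median of 2.97. The probe for CG18557 was called, 1 of 17 beside 51 of 777 named probes. It had log2 signals of 7.59, 7.78, 7.55 and 7.75 in nub-RB against 6.06, 5.58 and 5.90 in Pdm2-RB (limma adjusted p = 0.00103). With 3.20, 2.14 and 2.65 in w1118, both lines lay above control for CG18557. CG33462, named after its values were seen, was well above background on 3 of 4 nub-RB arrays and on no Pdm2-RB array. Its log2 signals were 6.77, 9.76, 6.65 and 4.61 in nub-RB, against 1.68, 1.65 and 0.81 in Pdm2-RB and 1.96, 1.38 and 1.70 in w1118. The signal was at least 19.6-fold higher in nub-RB, without passing the 1% threshold (limma adjusted p = 0.036).

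CG17239 was split within Pdm2-RB instead. At 1 probe it had 10.11, 10.71, 11.07 and 8.26 in nub-RB and 1.83, 10.94 and 2.37 in Pdm2-RB, so that Pdm2-RB array 2 reached the nub-RB level. Obp57a was split within nub-RB, with 2.14, 10.56, 8.22 and 7.82, against 2, 1.16 and 2.39 in Pdm2-RB and 11.34, 11.32 and 11.66 in w1118. These 2 genes were named after their values were seen and did not pass the test.

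The remaining groups gave few calls. Over all 777 named probes, 33 were called higher and 18 lower in nub-RB, and 45.9% were higher at an unadjusted p below 0.05. Among genes of Toll and IMD signalling, 1 of 8 probes was called (spheroide). Among pattern recognition genes 0 of 8 were called, with 4 of 8 (50%) higher at an unadjusted p below 0.05, near the share of all named probes. Of 12 cytochrome P450 probes 1 was called (Cyp6a19), of 7 odorant-binding and chemosensory probes 1 was called (Obp46a, lower in nub-RB), and of 9 storage protein and transferrin probes 0 were called (3 at an unadjusted p below 0.05). With scan day as a block neither spheroide (limma adjusted p = 0.0296) nor Cyp6a19 (adjusted p = 0.0272) passed. The JAK/STAT list had 4 probes and the JNK and stress kinase list 4 probes, none of them called. At an unadjusted p below 0.05, 1 JAK/STAT probe was higher in nub-RB, and 2 JNK and stress kinase probes were higher and 1 lower. Photoreceptor genes had 4 probes, all below 0 with a median of -1.25, none called and 0 at an unadjusted p below 0.05. The summed signal of the 6 photoreceptor probes was 680.5 to 6365 on nub-RB arrays and 3615 to 9030 on Pdm2-RB arrays.

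**Figure D4:**
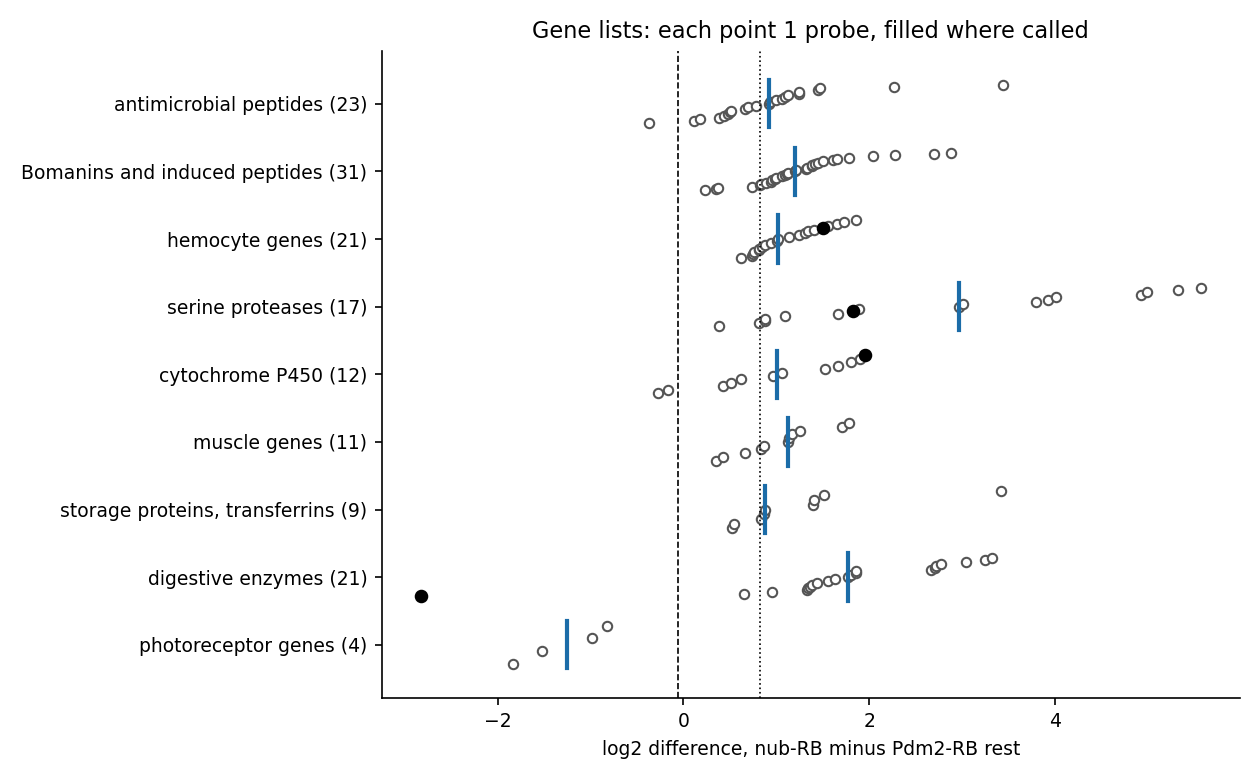
Log2 difference between nub-RB and Pdm2-RB rest (x axis) for each tested probe of 9 gene lists (rows, with the number of probes), filled where the probe passed the 1% threshold. Blue bars are list medians, the dashed line is the median of all tested probes (-0.06) and the dotted line that of all named probes (0.83); all hemocyte and Bomanin probes lie above 0.

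Other genes set both lines apart from control and differed far less between the lines. Oat encodes ornithine aminotransferase. At its brighter probe the log2 signals were 14.18, 13.98, 13.98 and 14.66 in nub-RB and 13.39, 14.18 and 14.15 in Pdm2-RB, against 2.20, 1.14 and 2.39 in w1118. The difference between the lines was 0.29 (95% interval -0.29 to 0.88, limma adjusted p = 0.5). The dimmer Oat probe had w1118 signals of 11.17, 11.21 and 10.78, so that the 2 probes gave the control very different levels.

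Su(P) showed the opposite order. Its log2 signals were 1.78, 0.92, 1.85 and 2.25 in nub-RB and 1.62, 1 and 1.33 in Pdm2-RB, against 12.51, 12.46 and 12.57 in w1118. Its mean signal was below 130 in both lines, so it was not tested between them. None of the 7 arrays of the lines had Su(P) well above background. The kinase gene wnd (wallenda), named after its values were seen, had 11.09, 10.96, 10.94 and 10.91 in nub-RB, 11.18, 11.17 and 11.26 in Pdm2-RB and 7.99, 7.97 and 8.03 in w1118. Its difference between the lines was -0.23 (95% interval -0.45 to -0.00083, limma adjusted p = 0.22), although the arrays of the lines did not overlap.

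The gut arrays gave the same contrast on 6 arrays that the rest comparison did not use, 3 of nub-RB and 3 of Pdm2-RB. Among 16540 probes tested in the gut, 56 were called (0.339%). Of the 82 probes higher in nub-RB rest, 73 were tested in the gut, where 71 had the same direction and 14 were called in that direction. Of the 80 probes lower in nub-RB rest, 64 were tested in the gut, where 60 had the same direction and 18 were called in that direction. Over all probes tested in the gut, 53.7% were above 0. No probe was called in opposite directions. The 32 probes called in both tissues made up 57.1% of the gut calls and 19.8% of the rest calls. The methods state that females were dissected to separate guts and rest. Whether gut and rest samples of a number came from the same flies was not stated outright. Dhpr and Obp46a were split on same-numbered arrays in both tissues. The gut arrays are therefore not shown to be independent of the rest arrays, and the interaction below was fitted without pairing by number.

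Of the 24 probes named for their high or low differences in the rest, 18 were tested in the gut, where 17 had the same direction and 8 were called. CG13135 (-4.22 in the gut, adjusted p = 0.364) and A_09_P170395 (2.65, adjusted p = 0.264) did not pass there, and spheroide was at -0.33 (adjusted p = 0.582). A_09_P143788 had gut signals of 2.70, 2.31 and 2.95 in nub-RB, against 14.08, 13.98 and 13.79 in Pdm2-RB. Aats-asp had 5.08, 5.44 and 5.57 in nub-RB, against 13.06, 13.06 and 12.63 in Pdm2-RB. CREG was higher in nub-RB gut by 3.23 (limma adjusted p = 0.0011) and CG8204 by 2.98 (adjusted p = 0.00278). A_09_P187420 had 9.37, 8.92 and 8.64 in nub-RB gut, against 2.57, 3.01 and 2.80 in Pdm2-RB gut.

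The difference between the tissues was tested itself, with the interaction of line and tissue over 13 arrays. Of 17803 probes 8 were called (0.0449%), 4 of them among the 162 called in the rest. CG32368 was higher in nub-RB rest by 2.26 and in nub-RB gut by 0.44 (interaction adjusted p = 0.00474), and the other three carried no symbol. None of the 24 probes named above for their high or low differences in the rest (1 probe a gene) was called for the interaction. Of the 162 probes called in the rest, 25 lay below the signal threshold in both lines in the gut and were not tested there.

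**Figure D5:**
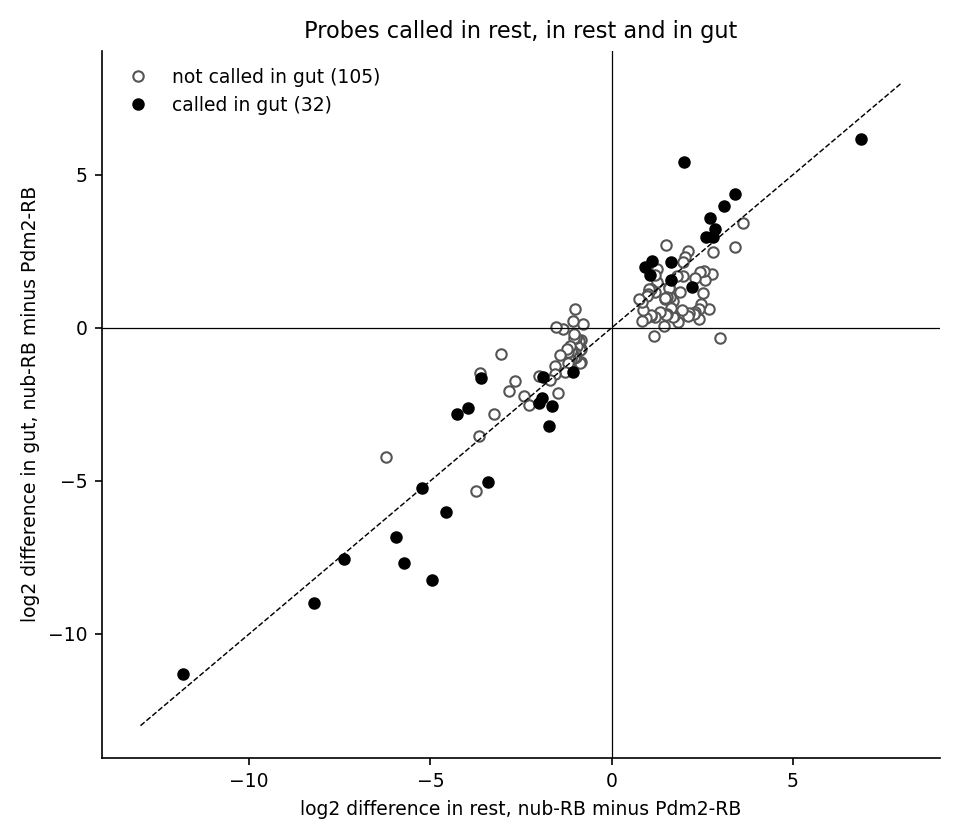
Log2 difference between nub-RB and Pdm2-RB in the rest (x axis, 7 arrays) and in the gut (y axis, 6 other arrays) for the called rest probes that were also tested in the gut, filled for the 32 called in both. The dashed line marks equal differences; 71 of 73 probes on the right and 60 of 64 on the left kept their direction in the gut.

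The called genes were spread over the chromosomes. Among genes with a symbol and a position in the RefSeq annotation, 46 of 591 tested genes were called (7.78%). By arm, 13 of 153 tested genes on 2R were called, 9 of 117 on 2L, 8 of 111 on 3L, 10 of 145 on 3R, 5 of 58 on X and 1 of 6 on chromosome 4. The shares on 2L, 2R, 3L, 3R and X were 6.9% to 8.62%, near the share of all arms. These counts are a description of the named genes only.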

How the data were processed

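RNA from the body without gut and head (rest) and from the gut was hybridised by the authors to single-colour Agilent Drosophila arrays, and spot intensity was read with Agilent Feature Extraction 10.7.3.1. Per the study's methods, the deposited intensity values were processed signals after quantile normalization in Partek. This was checked by quantile-normalizing the scanner files over the 19 arrays. Control spots and outlier-marked spots were left out of that check.

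The log2 of the deposited intensity was tested here with limma 3.58.1 in R 4.3.3 (lmFit and eBayes on the 7 arrays), over probes with a group mean above 130, with Benjamini-Hochberg adjustment at 1%. The methods' test was a t-test per gene with the same rate, which was run as an alternative. Gut arrays were tested alike, and the difference between tissues as an interaction over 13 arrays. Named genes were the 10 highest and 10 lowest called probes with a symbol, taking for each gene only its probe with the highest mean signal (CG8768 is therefore not among the lowest), up to 2 unnamed probes a direction, called list members, and nub, pdm2, Oat, Su(P), Dhpr, mthl8 and Aats-asp. Symbols came from the study's supplementary lists and from RefSeq accessions and covered 1412 of 32162 probes. In data simulated for the rest comparison over 16363 probes, 102 of 200 changed probes and 1 unchanged probe were called. The comparison, its members and the gene lists were chosen with earlier results of these data known. The number of arrays limits the precision.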

Additional observations from a re-analysis of the deposited data

Results flagged for a closer look

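PH4alphaSG1 on nub-RB rest array 4 had a log2 signal of 4.182, below the other nub-RB arrays at 4.92, 4.95 and 4.94, a gap that took up 0.97 of the range of the group. Chance alone flags about 1 in 20 groups in this way. All nub-RB arrays stayed below the Pdm2-RB arrays, at 8.41, 7.76 and 8.95.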

How the results depend on the processing

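The number of called probes depended on the arrays and the design. Instead of 162 probes, 105 were called with no filter on signal, 294 in a fit of the 10 rest arrays, 451 in a fit of all 19 arrays (303 higher and 148 lower in nub-RB), 578 at a false discovery rate of 5%, and 29 by the methods' t-test. With slide as a random block in the fit of 19 arrays, chosen after seeing the data because it could not be fitted on 7 arrays, 478 were called (320 higher, 158 lower), and with slide as a fixed block there 206 (130 higher, 76 lower). With scan day as a block 55 were called, within scan day 1 30 and within scan day 2 1. Leaving out 1 array gave 51 (without Pdm2-RB array 1) to 84 (without Pdm2-RB array 4). Without nub-RB arrays 1 and 4 and Pdm2-RB array 1, high in digestive enzymes, a choice made after seeing the data, 8 were called. With 75th-percentile scaling 134 were called, 113 of them among the 162.

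With the replicate block, 23 probes were called in the rest and 0 in the gut (limma, 512 at an unadjusted p below 0.05). Deviations of same-numbered rest arrays correlated at 0.40, 0.13 and 0.01 for numbers 1, 2 and 4. Those of differently numbered rest arrays of the lines correlated at -0.35 to 0.28. The numbers were not taken as pairs, although these values do not decide whether they were. In the gut 136 probes were called at 5%, and leaving out 1 array gave 7 to 27 instead of 56. For the interaction 34 were called at 5%, 0 with 75th-percentile scaling (1949 at an unadjusted p below 0.05), and 0 to 16 when 1 array was left out, instead of 8.

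Of the values of the named genes under the alternatives, 475 kept their direction and side of the threshold and 210 kept the direction but did not pass. The Oat differences reversed, to -0.025 with slide as a fixed block and to -0.17 and -0.19 without the 3 arrays. Dhpr passed without Pdm2-RB array 4, at -7.49, and within scan day 1, at -8.06. The causes were not tested.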
